A study of Mus musculus with 4 samples.

Results

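The sodium channel genes Scn3a, Scn7a, Scn3b and Scn4b, 4 of the 32286 genes in the deposited tables, were followed across the cell types of mouse popliteal vessels. They were picked from a list of sodium channel subunits because earlier results of the same data had shown Scn3a to mark muscle cells, so their levels across cell types are given as a description, without a test. Single-cell RNA was counted by unique molecular identifiers (UMIs, tags that mark each captured RNA molecule once). All mice were adult and carried the WT1GFPCre allele, which places GFP and Cre recombinase at the Wt1 locus, together with the Ai9-tdTomato reporter. Of the 3 gene expression libraries, 2 held popliteal lymphatic vessels (PLV), each from its own pool of 2 mice (PLV 1 and PLV 2, plotted as PLV replicate 1 and 2), digested for 30 min with collagenase I, Dispase II, DNase and Liberase. The other library, called the mixed library, held cells of PLV and of blood vessels (BV) from 1 pool of 2 mice, digested for 60 min with collagenase I and Dispase II and stained with hashtag antibodies. Vessel, digestion, run and mice therefore differed together between the PLV and mixed libraries and cannot be told apart.

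Voltage-gated sodium channels are membrane proteins that open when a cell depolarises and let sodium in, which drives the fast upstroke of the action potential in nerve and striated muscle. The pore is formed by an alpha subunit, and beta subunits attach to it and alter its gating and its place in the membrane. Scn3a encodes an alpha subunit best known from developing neurons. Scn7a encodes an alpha-like protein that responds to extracellular sodium rather than acting as an ordinary voltage-gated channel. Scn3b and Scn4b encode beta subunits. The muscle cells of collecting lymphatic vessels fire action potentials on their own, and the vessel contracts with each of them.

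Values listed in threes follow the order PLV 1, PLV 2, mixed. The libraries kept 1909, 516 and 994 cells, with medians of 3372, 4886 and 6162 UMIs per cell, and shared 0 cell barcodes. Cells were clustered within each library without the sodium genes, and clusters were named from fixed markers. The 7 classes named in all 3 libraries were muscle-like, pericyte-like, lymphatic endothelial-like, blood endothelial-like, fibroblast-like, Schwann-like and macrophage-like. All 8 smooth muscle markers had UMIs in the muscle-like cells of each library, while the satellite cell markers were at 0 and the skeletal muscle markers summed to between 2.56 and 5.45 CPM, the usual scaling of UMIs to a common library total. Muscle-like clusters fell into 3 kinds, called by their leading markers: an Ano1/Hmcn2 kind and a Pln/Sorbs2 kind in every library, and a P2rx1/Col12a1 kind in the mixed library. The Ano1/Hmcn2 kind of the mixed library joined 2 clusters. The leading genes of the smaller cluster included the stress genes Tiparp, Atf3 and Gadd45a, and also Scn3a itself. Clusters left unnamed held 244, 72 and 45 cells and are outside the classes. All levels below are CPM of summed counts, and their 95% Poisson intervals cover counting error only.

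Of the 4 genes, 3 have another sodium channel gene as a direct neighbour, and Scn3b does not (GRCm38, GENCODE M21 annotation). Scn3a (ENSMUSG00000057182) spans chr2:65457118-65567627 on the minus strand, between the amino acid transporter gene Slc38a11 and the alpha subunit gene Scn2a. Scn7a (ENSMUSG00000034810) spans chr2:66673425-66784914 on the minus strand, next to the alpha subunit gene Scn9a. Scn3b (ENSMUSG00000049281) spans chr9:40269217-40291618 and Scn4b (ENSMUSG00000046480) spans chr9:45138395-45154152, both on the plus strand. Scn3b lies between Zfp202 and Gramd1b. Scn2b, another beta subunit gene, ends 8.325 kb before Scn4b starts. An antisense gene, Gm13595, overlaps Scn3a and had 0 UMIs in every class sum. Another overlapping gene, Gm47266 within Scn3b, was not analysed here.

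Of the 4 genes, 2 had an entry in the RefSeq promoter table for GRCm38.p6. The 250 bases before the start of Scn7a, chr2:66784911-66785160 on the minus strand, are shown because the level of this gene separated the clusters of Schwann-like cells. Capitals mark a match to CAGCTG and a match to GGGCGG, the latter on the opposite strand.
Scn7a: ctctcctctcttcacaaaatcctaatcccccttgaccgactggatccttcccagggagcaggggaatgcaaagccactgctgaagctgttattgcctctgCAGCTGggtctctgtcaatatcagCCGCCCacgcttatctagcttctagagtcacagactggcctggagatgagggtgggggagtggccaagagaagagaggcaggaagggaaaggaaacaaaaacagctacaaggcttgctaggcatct
Both strands were searched. The motif ACAAAG, the motif TATAAA and the CArG box were searched for as well and had no match in this window. CAGCTG occurs in 13% and GGGCGG in 32.7% of the 32851 promoter windows of that length.

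Among the alpha subunits, Scn3a was highest in muscle-like cells of every library. PLV 1 reached 219.5 CPM (interval 200.3 to 239.95, 483 UMIs in 421 cells), PLV 2 199.3 CPM (169.3 to 233.1, 156 UMIs in 109 cells) and the mixed library 90.9 CPM (79.3 to 103.6, 223 UMIs in 314 cells). The mixed library lay below both PLV libraries, which were close to each other. Pericyte-like cells, the contractile cells of small vessels, came next with 50.5, 130.8 and 57.2 CPM, resting on 9, 16 and 21 UMIs. Their range overlapped that of the muscle-like cells across libraries, and the ratio of muscle-like to pericyte-like was 4.35 (interval 2.27 to 9.56) in PLV 1, 1.52 (0.909 to 2.73) in PLV 2 and 1.59 (1.01 to 2.62) in the mixed library. This ratio leaves out an unnamed PLV 1 cluster led by the pericyte markers Ndufa4l2 and Rgs5 and the muscle marker Des. That cluster had 319.7 CPM (interval 240.8 to 416.1, 55 UMIs in 98 cells), above the muscle-like level of PLV 1. Pericyte-like cells also held muscle markers, at a summed 7194, 8224 and 13457 CPM against 35356, 35174 and 42646 CPM in muscle-like cells, and the part of this in their Scn3a was not tested. Fibroblast-like cells had 1, 0 and 0 Scn3a UMIs, and Schwann-like and macrophage-like cells had 0.

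Lymphatic endothelial-like cells, the inner lining of lymphatic vessels, held some Scn3a, at 22.3, 16.0 and 1.21 CPM. In PLV 1 the 51 UMIs lay in 22 of 192 cells, and 42 of the UMIs came from cells without a UMI of the smooth muscle gene Myh11. The positive cells there had a median of 29586 UMIs, against 3134 in the other cells of the class. In PLV 2 the 15 UMIs lay in 5 cells, none with Myh11, and summed muscle markers were at 21.4 CPM, against 1152 CPM in PLV 1. Blood endothelial-like cells had 8.56, 6.36 and 0.63 CPM. Near-empty droplets of the mixed library, which carry free RNA, had 7.99 CPM, above the endothelial levels of that library.

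**Figure D1:**
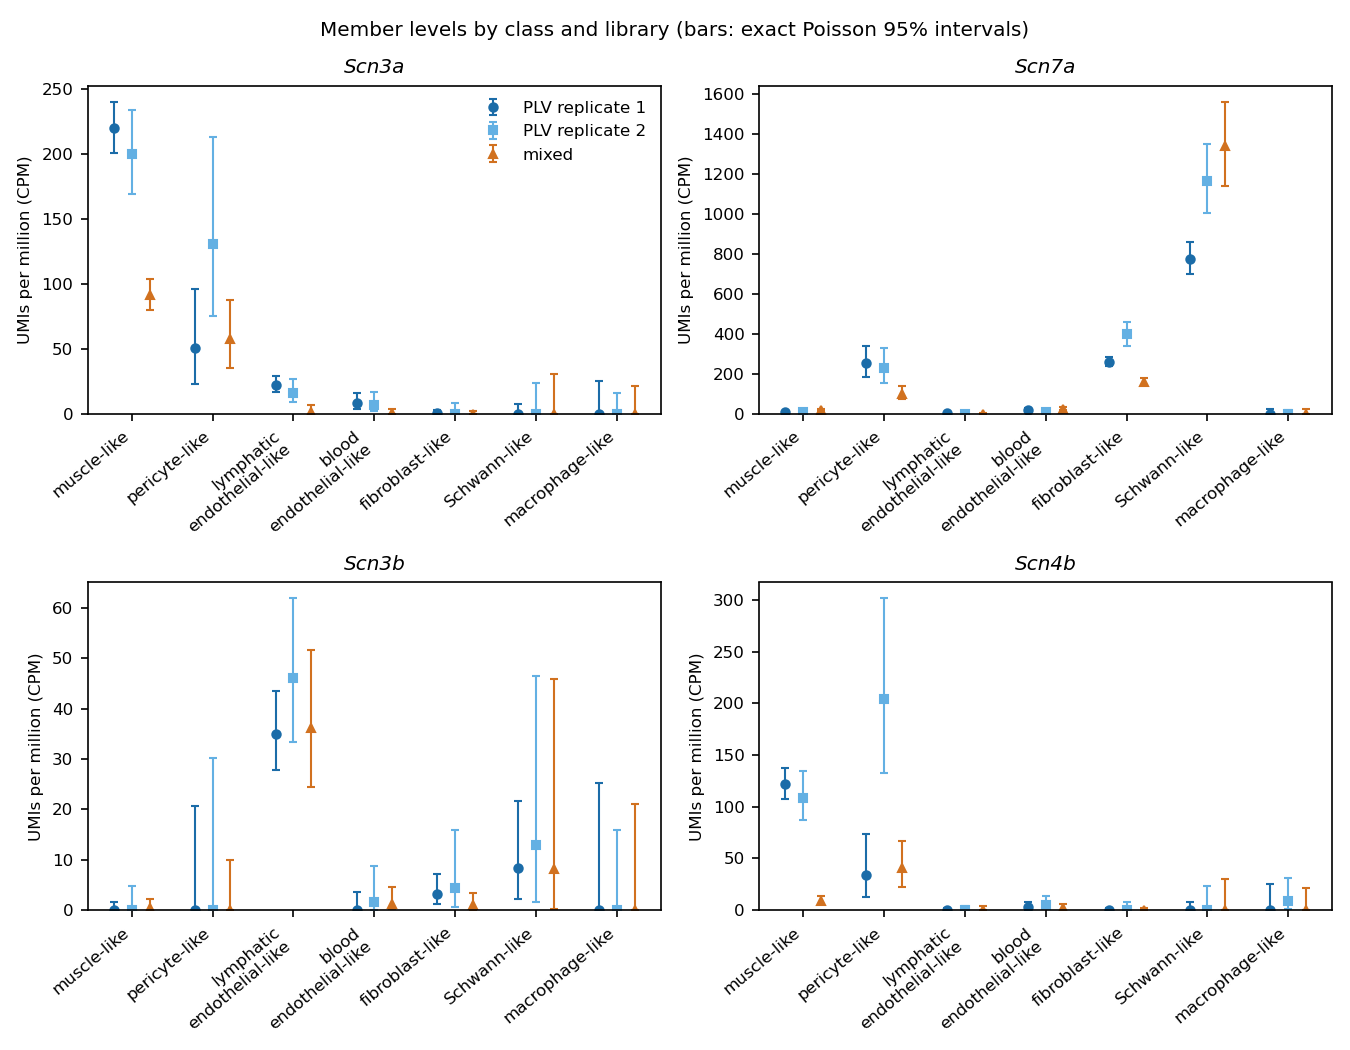
Level of each gene (vertical axis, CPM) in the 7 classes (horizontal axis); points are libraries and bars exact Poisson 95% intervals. Scn3a and Scn4b are high in muscle-like and pericyte-like cells, Scn7a in Schwann-like, fibroblast-like and pericyte-like cells, and Scn3b in lymphatic endothelial-like cells.

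Across kinds of muscle-like cluster, the Scn3a levels of the Ano1/Hmcn2 and Pln/Sorbs2 kinds overlapped in the PLV libraries. The Ano1/Hmcn2 kind had 212.8, 195.8 and 146.7 CPM, and the Pln/Sorbs2 kind 222.7, 201.8 and 64.1 CPM. In the mixed library the 2 clusters of the Ano1/Hmcn2 kind had 127.6 CPM and, in the smaller cluster with Scn3a and stress genes among its leading genes, 200.6 CPM. The ratio of Pln/Sorbs2 to Ano1/Hmcn2 was 1.05 (interval 0.861 to 1.28) and 1.03 (0.740 to 1.44) in the PLV libraries and 0.437 (0.261 to 0.693) in the mixed library, where the Pln/Sorbs2 kind rested on 20 UMIs in 43 cells. The P2rx1/Col12a1 kind, 74 cells with the highest median depth of the kinds (10117 UMIs), had 12.1 CPM from 10 UMIs, and the Ano1/Hmcn2 kind of the same library was 12.1 times higher (interval 6.45 to 25.7).

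Read as shares of cells, Scn3a had a UMI in 54.4%, 66.1% and 37.9% of muscle-like cells (PLV 1, PLV 2, mixed). After each cell was thinned to 1500 UMIs, with 9, 7 and 10 shallower cells left out, the shares were 21.4% (exact Clopper-Pearson 95% interval 17.5 to 25.6), 24.5% (16.5 to 34.0) and 12.5% (38 of 304 cells). Fibroblast-like cells, the comparison for background, had a thinned share of 0.298% in PLV 1 and 0 in the other libraries. Median depths were 4247, 4046 and 6904 UMIs in fibroblast-like cells and 4712, 6727 and 7527 UMIs in muscle-like cells.

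Of the classes, Schwann-like cells, the glia of peripheral nerve, had the highest Scn7a: 773.7 CPM (696.4 to 857.1), 1165 CPM (1002 to 1348) and 1339 CPM (1141 to 1561). Each library had 2 Schwann-like clusters, and nearly all of these UMIs lay in 1 of them. The cluster led by Cadm2, Chl1 or Kcna1 had 5120, 4625 and 4133 CPM, and it held 98.1%, 100% and 100% of the class's Scn7a UMIs in 50, 17 and 13 cells. Every cell of that cluster had a UMI in the PLV libraries, and 10 of 13 in the mixed library. The other Schwann-like cluster had 7, 0 and 0 UMIs in 184, 35 and 25 cells. Kcna2, a potassium channel gene, and Cdh19, a cadherin gene used as a Schwann marker, were among the 10 leading genes of the Scn7a-rich cluster in every library, and so was Scn7a itself.

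Fibroblast-like cells followed with 259.2, 396.2 and 158.7 CPM, from 471, 179 and 336 UMIs, and pericyte-like cells with 252.5, 228.9 and 100.7 CPM. The 2 classes overlapped across libraries, and both lay below the Schwann-like cells in each. The share of fibroblast-like cells with a UMI was 57.6%, 65.9% and 47.1%, and 31.8%, 45.7% and 16.5% after thinning. In lymphatic endothelial-like cells 0.521%, 0 and 0 had one, at median depths of 3498, 6894 and 4959 UMIs. In PLV 1 the gene was spread over all 4 fibroblast-like clusters, with 10.8% to 33.5% of the class's UMIs in each. Lymphatic endothelial-like cells had 2, 0 and 0 UMIs and macrophage-like cells 0.

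**Figure D2:**
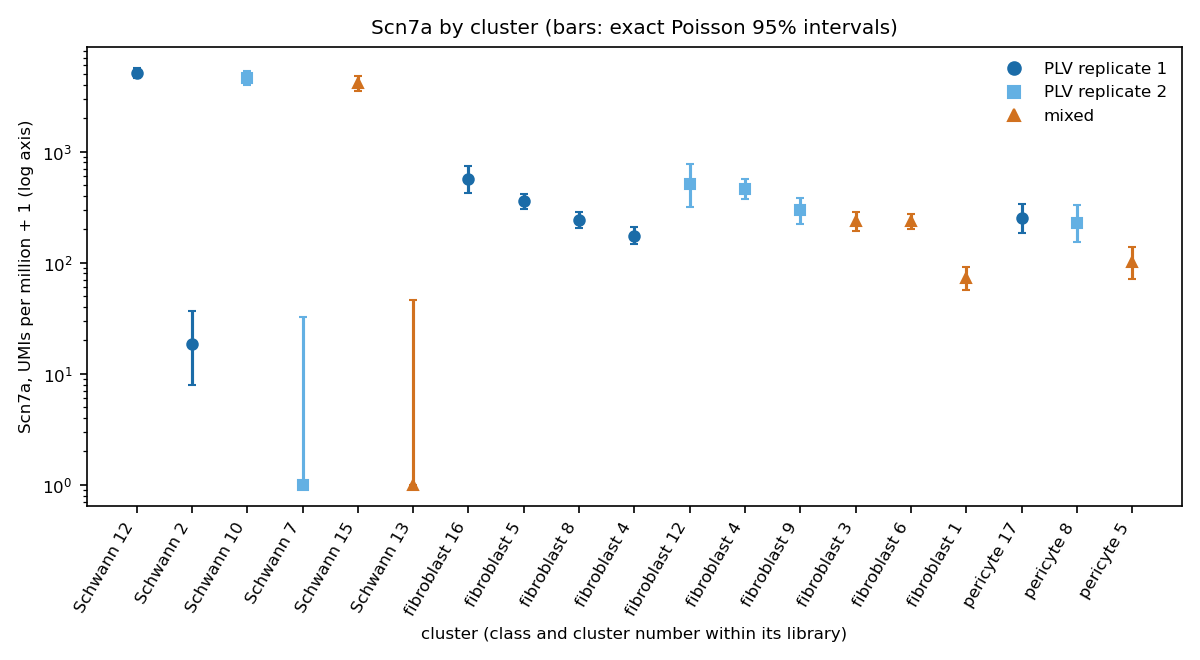
Scn7a level (vertical axis, CPM plus 1, log axis) in each Schwann-like, fibroblast-like and pericyte-like cluster, given on the horizontal axis by class and cluster number; points are clusters, marked by library, and bars exact Poisson 95% intervals. In each library 1 Schwann-like cluster lies at 4133 or above and the other one of the same library at or below 17.4.

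Within muscle, Scn7a was seen outside the Pln/Sorbs2 kind. The Ano1/Hmcn2 kind had 29.4, 21.8 and 29.6 CPM from 21, 7 and 39 UMIs, and the Pln/Sorbs2 kind had 0 UMIs in all 3 libraries. The Ano1/Hmcn2 kind was at least 14.6-fold, 3.34-fold and 3.08-fold higher against the floor of 3 counts. Fibroblast markers moved with it: they summed to 3268, 2766 and 5147 CPM in the Ano1/Hmcn2 kind and to 570, 456 and 2220 CPM in the Pln/Sorbs2 kind, with Pdgfra at 0 in both kinds of both PLV libraries. The P2rx1/Col12a1 kind had 5554 CPM of fibroblast markers and 4.84 CPM of Scn7a. Near-empty droplets of the mixed library had 24.0 CPM of Scn7a, close to the level of the Ano1/Hmcn2 kind there. The part of either in the Scn7a of muscle-like cells was not tested.

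Scn4b, a beta subunit gene, had nearly all of its muscle-like UMIs in the Pln/Sorbs2 kind. PLV 1 had 180.3 CPM (159.3 to 203.2, 268 UMIs) in the Pln/Sorbs2 kind, PLV 2 184.4 CPM (147.3 to 228.0, 85 UMIs) and the mixed library 67.3 CPM (41.7 to 102.9, 21 UMIs). The Ano1/Hmcn2 kind had 0, 0 and 1 UMI, and the P2rx1/Col12a1 kind had 0. Set against a floor of 3 counts per library, the Pln/Sorbs2 kind was at least 42.9-fold higher in PLV 1 and at least 19.8-fold higher in PLV 2. In the mixed library the ratio was 88.5 with a counting interval of 14.2 to 3660. A UMI was seen in 51.9%, 66.0% and 39.5% of cells of this kind, in 25.1%, 28.3% and 16.3% after thinning, and in 0 fibroblast-like cells.

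Scn4b was also present in pericyte-like cells, at 33.7, 204.4 and 40.8 CPM from 6, 25 and 15 UMIs. All muscle-like cells together had 121.8, 108.6 and 8.97 CPM, the last close to the 8.99 CPM of near-empty droplets in that library. The ratio of muscle-like to pericyte-like was 3.62 (interval 1.64 to 9.94) in PLV 1, 0.531 (0.337 to 0.866) in PLV 2 and 0.220 (0.109 to 0.455) in the mixed library, so the order of the 2 classes differed between libraries. The unnamed PLV 1 cluster led by Ndufa4l2, Rgs5 and Des, outside both classes, had 98.8 CPM of Scn4b from 17 UMIs. Fibroblast-like, Schwann-like and lymphatic endothelial-like cells had 0 UMIs in all libraries, blood endothelial-like cells had 3 in each, and macrophage-like cells had 0, 2 and 0. Within the Pln/Sorbs2 kind, cells with a UMI of both Scn3a and Scn4b numbered 96 of 285, 26 of 53 and 9 of 43, where the product of the separate shares gives 86.7, 25.8 and 6.72 cells. Cells of greater depth are more likely to show either gene, so this is a description.

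**Figure D3:**
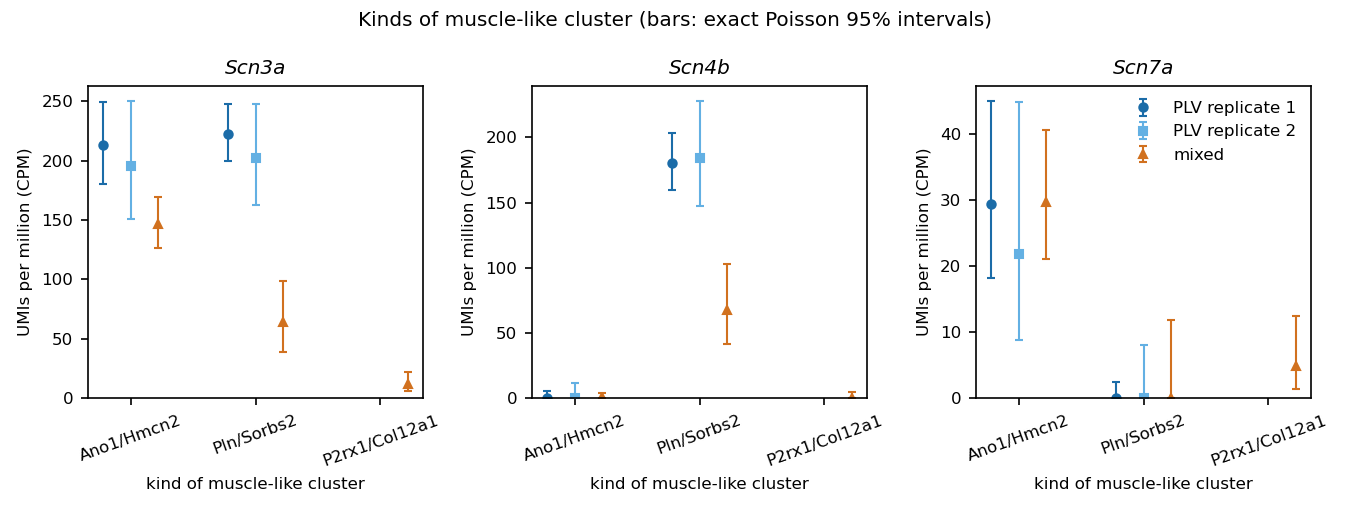
Level of Scn3a, Scn4b and Scn7a (vertical axes, CPM) in the kinds of muscle-like cluster (horizontal axis); points are libraries and bars exact Poisson 95% intervals, and the P2rx1/Col12a1 kind was found in the mixed library. Scn4b is near 0 outside the Pln/Sorbs2 kind, while Scn7a is at 0 within it.

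Scn3b, the other beta subunit gene, was highest in lymphatic endothelial-like cells, at 35.0 CPM (27.8 to 43.6, 80 UMIs), 46.0 CPM (33.3 to 61.9, 43 UMIs) and 36.2 CPM (24.4 to 51.7, 30 UMIs). The counting intervals of the 3 libraries overlapped. Blood endothelial-like cells had 0, 1 and 2 UMIs, so that the lymphatic class was at least 12.3-fold higher in PLV 1 and 28.9 (interval 4.92 to 1168) and 28.8 (7.31 to 249) times higher in the other libraries. Schwann-like cells had 8.46, 12.9 and 8.21 CPM from 4, 2 and 1 UMIs, and fibroblast-like cells 3.30, 4.43 and 0.94 CPM. Muscle-like cells had 0, 0 and 1 UMI, and pericyte-like and macrophage-like cells had 0. A UMI was seen in 21.4%, 28.2% and 26.4% of lymphatic endothelial-like cells, and in 4.73%, 9.23% and 6.25% after thinning, against 0, 0 and 0.318% of muscle-like cells before thinning. Near-empty droplets of the mixed library had 0 UMIs among 1000645.

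The genes with the most similar level across the 21 sums of library and class were sought among 12155 genes, by Pearson's r of log2(CPM + 1). These sums share libraries, and the coefficients are a description. For Scn3a they were Adra2b, Lmod1, Atp2a2, Dgkb and Nab1 (r from 0.91 to 0.94), of which Lmod1 was one of the markers that named the muscle class. For Scn7a they were Col5a3, Ptpn13, Plekhf1, Cpeb1 and Arhgap24 (0.92 to 0.96). For Scn3b they were Cldn11, Kcnk5, Ston2, Tgfa and Gpm6a (0.89 to 0.92), and for Scn4b 5830408C22Rik, Mtmr7, Myl1, Slc38a11 and Dgkg (0.91 to 0.96).

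Slc38a11, 93.1 kb from Scn3a, was higher in the same kind of muscle-like cell as Scn4b: the Pln/Sorbs2 kind had 143.3, 145.4 and 99.3 CPM and the Ano1/Hmcn2 kind 2.80, 9.32 and 3.04 CPM. Scn2b, beside Scn4b, had 24.2, 17.4 and 19.2 CPM in the Pln/Sorbs2 kind, from 36, 8 and 6 UMIs. In the Ano1/Hmcn2 kind it had 2.80, 0 and 6.84 CPM, from 2, 0 and 9 UMIs. Scn2a, beside Scn3a, had 28.0, 31.1 and 18.2 CPM in the Ano1/Hmcn2 kind and 19.5, 8.68 and 9.61 CPM in the Pln/Sorbs2 kind. By CPM, Scn2b and Scn4b, neighbours on the chromosome, were both higher in the Pln/Sorbs2 kind in each library. For Scn2b this rested on few UMIs in PLV 2 and the mixed library and was not tested.

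The wider sodium handling list held 60 genes found in the files, 56 of them beside the 4 members. In muscle-like cells against the mean of the other 6 classes, 29 of the 56 passed the filter on low counts; 14 were higher and 2 lower (edgeR quasi-likelihood test, Benjamini-Hochberg adjusted p under 0.05). Over all genes tested, 33.9% passed, 23% higher and 10.9% lower. The median log2 difference was 0.71 for the list and 0.07 for all genes. By role, 7 of 14 tested pump and exchanger genes were higher and 2 lower, 5 of 11 channel partners were higher, and 1 of 2 beta subunit genes was higher. None of the 8 other alpha subunit genes passed the filter, so none was tested. Among them Scn2a had 22.3, 17.9 and 13.4 CPM in muscle-like cells, from 96 UMIs in all. It had at most 8.17 CPM in any other class.

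Among the named genes, Atp1b2, a subunit of the sodium pump, had the largest difference. Its level was 268.6, 171.2 and 86.4 CPM in muscle-like cells against class means of 32.3, 44.4 and 24.96 CPM, a log2 difference of 4.65 (SE 0.29, edgeR adjusted p = 5.72e-11). The log2 values are means of log differences over the classes, not logs of the ratio of these means, and where a class has 0 counts they depend on the prior count of the fit. In pericyte-like cells Atp1b2 had 84.2, 171.7 and 78.9 CPM, close to the muscle-like level in PLV 2 and the mixed library and below it in PLV 1.

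Of the channel partners, 5 were higher. Of these, Nedd4 turned in sign against fibroblast-like cells alone, and Gpd1l did not pass there or without PLV 1. Nedd4 was also higher in pericyte-like cells of every library, at 1374.8, 1553.3 and 1227.6 CPM against 829.3, 931.4 and 978.4 CPM in muscle-like cells. Fgf13, which encodes a protein that binds the tail of sodium channel alpha subunits, had 82.7, 72.8 and 58.7 CPM against 8.68, 2.96 and 2.36 CPM (log2 difference 4.45, SE 0.27, edgeR adjusted p = 8.91e-12). Bace1, a protease that cleaves beta subunits, differed by 2.91. Its level was 145.4, 94.5 and 77.8 CPM in muscle-like cells and 78.6, 49.1 and 81.7 CPM in pericyte-like cells. The beta subunit gene Scn2b differed by 3.70 (SE 0.62, edgeR adjusted p = 9.85e-05) on 61 UMIs in muscle-like cells, which had 17.3, 10.2 and 6.11 CPM against 0.409, 5.34 and 3.84 CPM. Pericyte-like cells had 0, 24.5 and 21.8 CPM of Scn2b from 0, 3 and 8 UMIs, above the muscle-like level in PLV 2 and the mixed library.

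The transporter genes Slc8a1, Slc24a3 and Slc4a7 (log2 differences 3.69, 3.25 and 2.07) were higher as well. So were the pump regulator Fxyd1 (2.78), the two-pore channel gene Tpcn2 (1.35) and the pump subunit Atp1b1 (1.29). Atp1b1 had 13.6 CPM in muscle-like cells of PLV 1 against a class mean of 28.7 CPM, so its sign differs between the fit and the plain mean, and without PLV 2 or without the mixed library it no longer passed. Tpcn2 also failed without PLV 2. Against fibroblast-like cells alone, Atp1b1 turned in sign and Fxyd1 and Tpcn2 did not pass. Schwann-like cells had 579.2, 701.7 and 887.1 CPM of Fxyd1, against 615.3, 558.3 and 462.5 CPM in muscle-like cells. They thus lay above muscle-like cells in PLV 2 and the mixed library. Slc24a3 was higher in pericyte-like than in muscle-like cells of every library, at 44.89, 49.05 and 24.5 CPM against 24.99, 43.44 and 17.12 CPM. Atp1b1 was too, with 78.56, 65.4 and 103.4 CPM in pericyte-like cells against 13.6, 20.44 and 28.53 CPM. Neither difference was tested. Fxyd5, a pump regulator, was lower, with 10.9, 3.83 and 4.08 CPM in muscle-like cells against 136.1, 202.3 and 240.7 CPM (log2 difference -3.75, SE 0.36).

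Between PLV and mixed libraries, a contrast that did not choose the genes, muscle-like cells had more Scn3a and Scn4b in PLV by edgeR, but the kinds of muscle-like cell also differed in number. The Pln/Sorbs2 kind was 285 of 421 and 53 of 109 muscle-like cells in the PLV libraries and 43 of 314 in the mixed library. The P2rx1/Col12a1 kind was found in the mixed library alone, as 74 of those 314 cells. It had 12.1 CPM of Scn3a and 0 UMIs of Scn4b, and its part in the differences was not tested. In this comparison 17.2% of 10805 genes passed. The log2 difference, PLV minus mixed, was 0.98 for Scn3a (SE 0.26) and 3.46 for Scn4b (SE 0.33), with edgeR adjusted p-values of 0.00201 and 3.66e-22. Scn7a differed by -1.14 (SE 0.43, edgeR adjusted p = 0.0504) and Scn3b did not pass the filter. The Scn7a difference passed with the higher UMI minimum per cell (adjusted p = 0.0482 in edgeR) and at Leiden resolutions of 0.5 and 2 (0.00167 and 0.0492). It did not pass with doublets kept (log2 difference -0.73, edgeR adjusted p = 0.217), with 15 neighbours (-0.75, 0.224), with library totals only (-0.90, 0.138) or with the lower mitochondrial limit (-1.08, 0.0655). DESeq2 on the same sums called 204 genes against 1855 by edgeR; there Scn3a had an adjusted p of 0.200, Scn4b 1.01e-07 and Scn7a 0.925.

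Within a kind the differences were smaller for Scn4b and unequal for Scn3a. In the Pln/Sorbs2 kind, where 3.12% of genes passed, the log2 difference was 1.5 for Scn3a (SE 0.35) and 1.20 for Scn4b (SE 0.35), with edgeR adjusted p-values of 0.00167 and 0.0269. DESeq2 gave both an adjusted p of 0.9999. In the Ano1/Hmcn2 kind, where 2.84% passed, Scn3a differed by 0.21 (SE 0.27, edgeR adjusted p = 0.728), and the counting interval of the mixed library (126.7 to 168.9 CPM) overlapped that of PLV 2 (150.4 to 250.5) and not that of PLV 1 (180.3 to 249.5). The difference between the kinds was tested and did not pass (log2 -1.27, SE 0.41, edgeR adjusted p = 0.181). The fit has 2 libraries against 1 and assumes that the mixed library varies as the PLV libraries do. Its p-values rest on the spread between 2 PLV pools, with each gene's estimate drawn toward the trend over all genes. No spread between mixed libraries enters them.

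In the other classes no member passed this contrast by edgeR. In lymphatic endothelial-like cells, where 0.191% of genes passed, Scn3b differed by -0.09 (SE 0.33, edgeR adjusted p = 0.935) and Scn3a by 3.74 (SE 0.96, edgeR adjusted p = 0.195), the latter on 1 UMI in the mixed library. Scn7a differed by 0.50 (SE 0.36) in fibroblast-like cells, where 11.4% passed, by -0.65 (SE 0.28) in Schwann-like cells, where 3.95% passed, and by 1.04 (SE 0.41) in pericyte-like cells, where 3.32% passed. Their edgeR adjusted p-values were 0.440, 0.206 and 0.155. In blood endothelial-like cells, where 6.83% passed, the Scn7a difference was -0.79 (SE 0.43, edgeR adjusted p = 0.285). In pericyte-like cells Scn3a differed by 0.35 and Scn4b by 1.18 (edgeR adjusted p = 0.811 and 0.212).

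**Figure D4:**
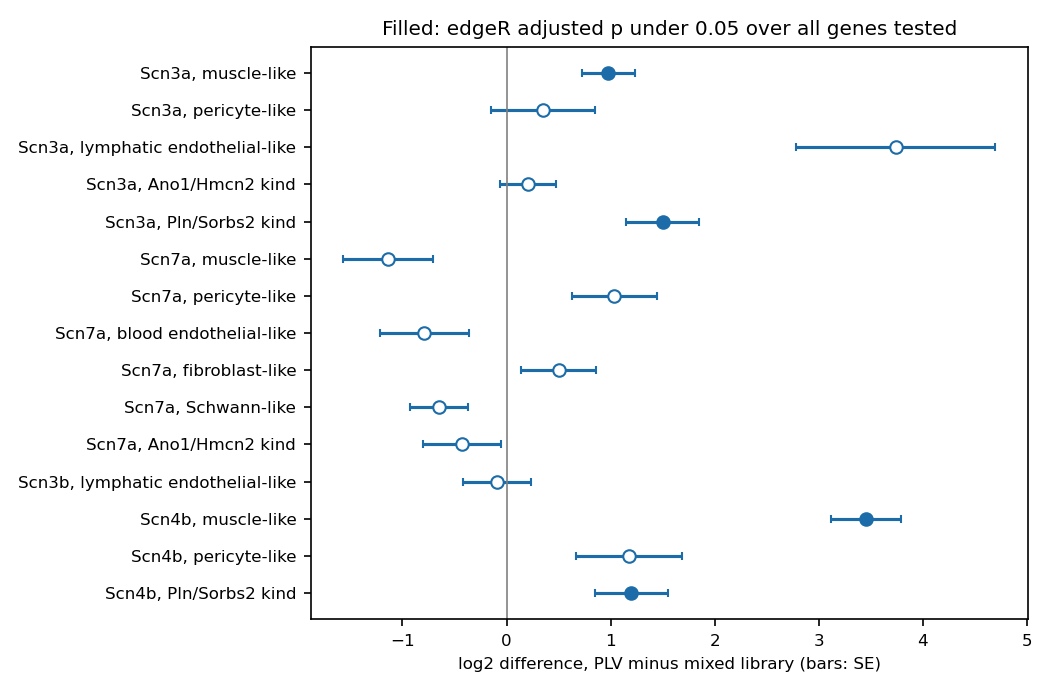
Log2 difference, PLV minus mixed (horizontal axis), for each gene and class or kind that was tested, leaving out any with a large standard error. Bars are standard errors, and filled points passed an adjusted p of 0.05 in edgeR. Scn3a and Scn4b in muscle-like cells and in the Pln/Sorbs2 kind are filled, all to the right of 0.

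Of the 60 list genes, 38 were tested in muscle-like cells between PLV and mixed, with 7 higher and 2 lower in PLV by edgeR, beside 17.2% of all genes in either direction. DESeq2 called 1 list gene, Scn4b. Beside Scn3a and Scn4b, the higher genes included Atp1b2 (log2 difference 1.14), Cav3 (0.99) and Slc8a2 (2.86). The direction for Cav3 turned within the Pln/Sorbs2 kind, which had 43.1, 30.4 and 70.5 CPM (log2 difference -1.09, SE 0.41, edgeR adjusted p = 0.136). Nedd4l, a ubiquitin ligase that regulates sodium channels, was lower by a log2 difference of -1.56, and Atp1b1 by -1.09. In the Ano1/Hmcn2 kind Nedd4l differed by 0.15 (edgeR adjusted p = 0.881). Within the Pln/Sorbs2 kind the list genes that passed were Scn3a and Scn4b (0 in DESeq2), and within the Ano1/Hmcn2 kind 0 passed in edgeR and 0 in DESeq2.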

How the data were processed

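The deposited counts are UMI counts per gene and barcode that the authors made with Cell Ranger, version 6.1.2 for PLV and 4 for mixed per the file headers. GRCm38 and Seurat are listed in the submitters' processing notes, while for annotation and counting strand nothing is stated. PLV barcodes came filtered (2649 and 730), mixed ones unfiltered (896360). The hashtag features were not used, since the files do not pair them with vessels.

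Cells with at least 500 UMIs, 300 genes, at most 15% mitochondrial and 20% haemoglobin UMIs were kept (scanpy 1.11.5), 10, 3 and 3 Scrublet doublets removed, and each library clustered on 2000 variable genes without the sodium list, 50 components, 10 neighbours and Leiden resolution 1. A cluster took a name from at least 3 markers that were at least 2-fold above the other cells and detected in 20% of its cells. Clusters with fewer markers stayed unnamed. So did clusters with enough markers whose leading genes favoured another class, or whose median UMIs were low with no class marker among the leading genes. This configuration was picked from 7 tried with the genes' levels already seen. Kept UMIs per library were 9577642, 3390010 and 7770796.

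Counts were summed per library and class and tested with edgeR 4.0.16 (quasi-likelihood, TMM, filterByExpr, library as a block for classes, Benjamini-Hochberg over all genes at 0.05); DESeq2 1.42.0 was an alternative. Fits were tested on simulated data; at the larger of the dispersions tried the PLV-against-mixed fit missed most of the changed genes, so a gene that did not pass there is not shown to be equal. Intervals are exact Poisson or Clopper-Pearson at 95%, for counting error only; the floor is 3 counts. Beyond the 4 genes, list genes were given values if they passed with at least 10 muscle-like UMIs, at most 12 per contrast by size; neighbours on the chromosome were named after their values were seen. Members, lists and tests were chosen with earlier results of these data known. Some list and cluster-leading genes are not reported here.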

Additional observations from a re-analysis of the deposited data

Results flagged for a closer look

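Clusters that no class name covers held Scn3a, Scn4b and Scn7a, and few UMIs of Scn3b (1 in PLV 1, 2 in PLV 2, 0 in the mixed library). In PLV 1 an unnamed cluster of 98 cells led by Ndufa4l2, Rgs5 and Des, with a median of 1006 UMIs per cell, had 319.7 CPM of Scn3a, 98.8 CPM of Scn4b and 40.7 CPM of Scn7a, and Scn3a was among its leading genes. Another, of 85 cells led by Sema3g and Gja5, had 56.0 CPM of Scn3a, 33.6 CPM of Scn7a and 31.3 CPM of Scn4b. A cluster of 43 cells led by Lgals3 had 20.1 CPM of Scn7a from 4 UMIs. In the mixed library, 35 unnamed cells led by Kcng1, with a median of 1242 UMIs, had 222.2 CPM of Scn3a, and 10 cells led by Apod had 122.6 CPM of Scn7a from 7 UMIs. The near-empty droplets of the mixed library held 7.99 CPM of Scn3a, 24.0 CPM of Scn7a and 8.99 CPM of Scn4b.

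The interaction term in edgeR was fitted for 21 gene and contrast pairs, between muscle-like cells and each other class and between muscle kinds. Pairs in which a side had 0 UMIs could not give a result. These were Scn3a and Scn4b against Schwann-like cells, Scn3a against macrophage-like cells, and Scn4b against fibroblast-like and lymphatic endothelial-like cells. Scn7a between the Ano1/Hmcn2 and Pln/Sorbs2 kinds could not either. No spread between mixed libraries enters these fits, and DESeq2 was not run for them. By edgeR, the PLV minus mixed difference itself differed between classes for Scn7a and Scn4b, as follows. Over all genes, 644 of 11747 passed for muscle-like against fibroblast-like cells and 136 of 8888 for muscle-like against pericyte-like cells. For Scn7a it was lower in muscle-like than in fibroblast-like cells by a log2 of -1.53 (SE 0.45, adjusted p = 0.0195) and lower than in pericyte-like cells by -2.08 (SE 0.57, adjusted p = 0.0223). For Scn4b it was higher in muscle-like than in pericyte-like cells by 2.44 (SE 0.67, adjusted p = 0.0232). The shares of the muscle kinds differed between these libraries as well, and their part in these values was not tested.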

How the results depend on the processing

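Among the list genes, 14 higher and 2 lower in muscle-like cells became 16 higher and 4 lower with DESeq2. Against fibroblast-like cells alone they became 10 higher and 7 lower, and with no filter on low counts 21 higher and 2 lower. Leaving out each library in turn gave 12 to 14 higher and 2 to 4 lower. Without the replicate block (library) the counts were again 14 and 2. No paired analysis was possible between PLV and mixed because the mixed library stands alone, and leaving out either PLV library was not run there, since 1 library against 1 has no residual degrees of freedom. Genes passing in muscle-like cells between PLV and mixed numbered 1855 (9 of the list); DESeq2 gave 204 (1). The Ano1/Hmcn2 kind alone gave 247 (0), and 28 (0) with DESeq2; the Pln/Sorbs2 kind alone gave 204 (2), and 17 (0) with DESeq2. These kinds and the use of 15 neighbours were alternatives chosen after seeing the data. With DESeq2 the Scn3a difference was 0.97 in muscle-like cells. The cause of these changes was not tested. Mean shares over libraries without thinning were 52.8% for Scn3a (19.5% thinned) and 24.3% for Scn4b (11.3%) in muscle-like cells, 56.9% for Scn7a in fibroblast-like cells (31.3%) and 25.3% for Scn3b in lymphatic endothelial-like cells (6.74%). With cells thinned, mean levels were 1419 CPM for Scn7a in Schwann-like cells (1093 unthinned) and 56.7 CPM for Scn3b in lymphatic endothelial-like cells (39.1). Depth limits Scn3b, with 36 to 91 UMIs per library, and Scn4b in the mixed library, with 40.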
